A study of Rattus norvegicus with 8 samples.

Results

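Transcripts of 9 tight and adherens junction genes were followed in type II cells of the rat lung alveolus (ATII cells), which make surfactant, after forced activity of the transcription factor HIF1a. The genes were the claudins Cldn1, Cldn3, Cldn4, Cldn7 and Cldn18, and Ocln, Tjp1, Cdh1 and Epcam, taken from 18166 measured genes by their symbol in the platform annotation. Each of the 9 had 1 probe set, so the choice between probe sets had no part in their values. ATII cells from 4 male Sprague Dawley rats were given either AdGFP, an adenovirus for green fluorescent protein, or AdHIF1a, an adenovirus for a HIF1a mutant that is constitutively active. The virus was present for 3 h in 2% serum at a multiplicity of infection of 20. The cells then grew for 24 h on a gel of 80% rat tail collagen and 20% Matrigel with 5% rat serum before total RNA was taken. All wells therefore carried an adenovirus and the same gel and serum. The sources used here give neither the age of the rats nor the species of the HIF1a sequence. The design pairs the 8 arrays into 4 rats, with 1 well of each virus from a rat, extracted on a date of its own. Rats are numbered here by the replicate number of their arrays. Rat and date cannot be told apart, but both are shared by the wells of a pair.

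Tight junctions seal the space between epithelial cells. Claudins are membrane proteins whose kinds set how tight and how ion-selective that seal is, and occludin (Ocln) sits beside them, while the scaffold ZO-1 (Tjp1) ties the strands to actin. Below the seal, E-cadherin (Cdh1) holds neighbouring cells together through the catenins, and Epcam is an adhesion protein that binds claudin-7. In alveolar epithelium claudin-18 is an abundant isoform, and claudin-3 and claudin-4 are known from type II cells.

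The claudins split. Cldn1, Cldn3, Cldn4 and Cldn7 rose in the AdHIF1a wells, by 1.24- to 1.43-fold, while Cldn18 fell 1.27-fold. Of the other 4 genes, Cdh1 fell 1.44-fold and Epcam 1.33-fold, and Ocln and Tjp1 did not pass the test. Thus 4 of 9 genes were higher and 3 lower at a limma adjusted p under 0.05 over all genes, where 20.2% of all 18166 genes were called (8.68% higher and 11.5% lower). These genes and the wider lists below were chosen with earlier results of these data known, so such counts are only a description. With genes dimmer than the median probe set left out, 3949 of 11343 genes were called, and again 4 of the 9 were higher and 3 lower. The signals of the 2 viruses did not overlap for 7 of 9 genes, as for 22.5% of all genes. The changes were small, with a median difference of 0.35 log2 units for the 5 claudins and -0.22 for the other 4 genes, against -0.005 over all genes. Without rat 1, 2, 3 or 4 the number of the 9 genes called was 6, 3, 4 and 3. Over all 18166 genes it was 3803, 2195, 2712 and 2117, against 3674 with all rats. With the variance prior taken from all probe sets on the array, Cldn4 and Cldn7 were not called, which left 2 higher and 3 lower (5.68% and 7.77% of all genes). After centring each array on its median, 1 gene was higher (Cldn3) and 3 lower, while over all genes the 1576 higher and 2098 lower calls became 936 and 2161. In the same wells 8 of 9 type I cell markers fell and markers of type II cells went both ways, and the part of this in the junction results was not tested. RNA was taken from whole wells, so fewer cells of a type and less RNA per cell cannot be told apart.

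The deposited values are log2 signals for 36685 probe sets, with array medians of 5.00 to 5.20 and upper quartiles of 7.62 to 7.68. A difference is the AdHIF1a signal minus the AdGFP signal on the log2 scale, estimated by limma with the rat as a block and given ± SE. Arrays carry no read depth, and the number of arrays limits the precision. The probe set of Hif1a itself read 11.10, 11.05, 11.32 and 11.03 with AdGFP and 10.64, 10.69, 10.77 and 10.48 with AdHIF1a (rats 1 to 4 in order, here and below), so it was lower in 4 of 4 rats. No source used here gives its probe sequences, and whether it detects the viral transcript is not known, so it does not check the labels. The HIF target Car12, a carbonic anhydrase, read 4.66 to 4.79 with AdGFP and 10.52 to 10.78 with AdHIF1a, and Slc2a1, the glucose transporter GLUT1, 11.52 to 11.82 and 12.78 to 12.86, each in the direction of the labels.

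**Figure D1:**
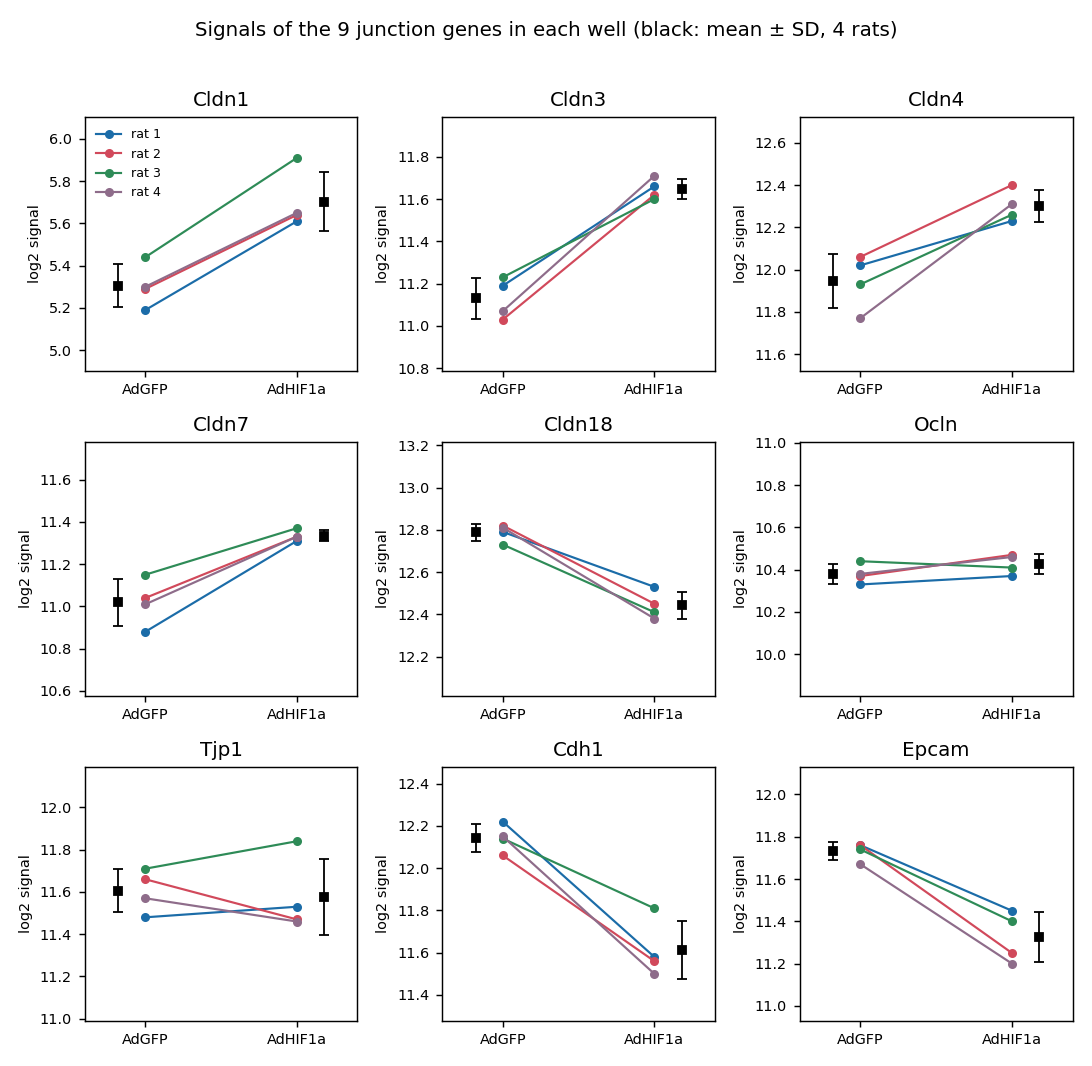
Log2 signal (vertical axis, 1.2 log2 units in every panel) of each junction gene in the AdGFP and AdHIF1a wells, with a line for each rat and the mean ± SD over 4 rats in black. Lines rise in all 4 rats for Cldn1, Cldn3, Cldn4 and Cldn7, fall in all 4 for Cldn18, Cdh1 and Epcam, and cross for Ocln and Tjp1.

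Cldn3, which also serves as a receptor of Clostridium perfringens enterotoxin, had signals of 11.19, 11.03, 11.23 and 11.07 with AdGFP and of 11.66, 11.62, 11.60 and 11.71 with AdHIF1a. All 4 AdHIF1a wells lay above all 4 AdGFP wells, which also differed more among themselves (SD 0.095 against 0.049). Its mean went from 11.13 to 11.65, a difference of 0.52 ± 0.08, or 1.43-fold (95% interval 1.25 to 1.64; limma adjusted p = 0.00565). This was the largest rise of the 9 genes, and its call was kept under all 14 alternatives, with an adjusted p of at most 0.0338.

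Cldn4, an isoform that tightens the barrier and the second enterotoxin receptor of the family, read 12.02, 12.06, 11.93 and 11.77 with AdGFP and 12.23, 12.40, 12.26 and 12.31 with AdHIF1a. The groups did not overlap, and the gap within a rat ran from 0.21 in rat 1 to 0.54 in rat 4. The difference was 0.35 ± 0.09, or 1.28-fold (1.11 to 1.47; limma adjusted p = 0.0276). Cldn7, the claudin that binds Epcam, read 10.88, 11.04, 11.15 and 11.01 with AdGFP and 11.31, 11.33, 11.37 and 11.33 with AdHIF1a. The AdHIF1a wells were close together (SD 0.025) and all lay above the AdGFP wells (SD 0.11). Its difference was 0.32 ± 0.08, or 1.24-fold (1.09 to 1.42; limma adjusted p = 0.0314). Neither call was firm. That of Cldn4 was lost without rat 2, 3 or 4 (limma adjusted p = 0.101, 0.0807 and 0.129) and that of Cldn7 when any single rat was left out (0.0631, 0.114, 0.0655 and 0.117 for rats 1 to 4). Both were also lost with the variance prior from all probe sets (0.0635 and 0.0679) and with median centring (0.141 and 0.251), within ranges over all alternatives of 0.00292 to 0.141 for Cldn4 and 0.00379 to 0.251 for Cldn7.

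Cldn1, a claudin needed for the barrier of the skin, gave a much dimmer probe set, near the array medians, with 5.19, 5.29, 5.44 and 5.30 in the AdGFP wells and 5.61, 5.64, 5.91 and 5.65 in the AdHIF1a wells. Every AdHIF1a well was above every AdGFP well, and the gaps within rats were even, from 0.35 to 0.47. The difference was 0.40 ± 0.08, or 1.32-fold (1.16 to 1.49; limma adjusted p = 0.0111). Folds are compressed at such low signals, so this is no exact size. The call was lost with quantile normalization (limma adjusted p = 0.0604) and median centring (0.103), in a range over all alternatives of 0.00560 to 0.103.

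Cldn18 went the other way. It read 12.79, 12.82, 12.73 and 12.81 with AdGFP, a spread of only 0.040 (SD), and 12.53, 12.45, 12.41 and 12.38 with AdHIF1a. The highest AdHIF1a well was below the lowest AdGFP well, and the gap within a rat was smallest in rat 1 (-0.26) and widest in rat 4 (-0.43). The mean fell by 0.34 ± 0.08, or 1.27-fold (1.12 to 1.44; limma adjusted p = 0.0208). This call was lost without rat 2, 3 or 4 (adjusted p = 0.0986, 0.0643 and 0.102), and the adjusted p ranged from 0.000817 to 0.102 over all alternatives. Signals this close to the top of the array's scale (highest value 13.57) can understate a change.

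The promoters of Cldn3, Cldn7, Cldn18 and Epcam are shown because these genes moved in opposite directions. The windows run from 250 bases before to 50 after the transcription start and are RefSeq sequence of the build GRCr8. RefSeq promoters were matched for 7 of the 9 genes, all but Cldn4 and Cdh1. Capitals mark ACGTG and GCGTG, the core letters bound by HIF, and CAGGTG, an E-box read by Snail-type repressors, each on either strand.
Cldn3 (chr12:27346498-27346797, - strand): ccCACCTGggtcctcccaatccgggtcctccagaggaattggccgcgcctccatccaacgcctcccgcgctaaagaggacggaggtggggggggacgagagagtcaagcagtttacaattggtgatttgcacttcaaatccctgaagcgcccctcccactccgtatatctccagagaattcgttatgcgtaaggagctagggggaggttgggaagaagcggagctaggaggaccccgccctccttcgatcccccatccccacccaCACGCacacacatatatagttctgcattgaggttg
Cldn7 (chr10:55188420-55188719, + strand): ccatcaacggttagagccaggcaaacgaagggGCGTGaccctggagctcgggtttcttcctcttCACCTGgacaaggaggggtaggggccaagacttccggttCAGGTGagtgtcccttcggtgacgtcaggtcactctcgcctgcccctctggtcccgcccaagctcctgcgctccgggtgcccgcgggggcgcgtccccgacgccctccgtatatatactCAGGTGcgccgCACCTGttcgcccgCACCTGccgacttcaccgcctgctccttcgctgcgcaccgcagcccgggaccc
Cldn18 (chr8:109144570-109144869, - strand): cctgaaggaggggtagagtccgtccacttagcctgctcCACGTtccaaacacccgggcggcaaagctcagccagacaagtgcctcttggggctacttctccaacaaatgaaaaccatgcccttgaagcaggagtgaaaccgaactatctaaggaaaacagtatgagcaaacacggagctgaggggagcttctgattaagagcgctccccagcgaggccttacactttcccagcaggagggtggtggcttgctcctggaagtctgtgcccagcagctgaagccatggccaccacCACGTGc
Epcam (chr6:12649629-12649928, - strand): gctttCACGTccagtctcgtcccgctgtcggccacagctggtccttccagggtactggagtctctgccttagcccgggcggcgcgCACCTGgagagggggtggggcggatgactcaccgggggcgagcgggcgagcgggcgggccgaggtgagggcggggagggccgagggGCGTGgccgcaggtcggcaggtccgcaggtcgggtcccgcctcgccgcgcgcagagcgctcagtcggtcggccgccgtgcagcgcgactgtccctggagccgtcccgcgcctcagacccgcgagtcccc

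ACGTG was present in 2 of the 7 promoters, those of the lower genes Cldn18 and Epcam, and in 19.2% of all 33469 promoters of that length. In Cldn18 it occurred 3 times, of which 2 overlap on opposite strands as the palindrome near the 3′ end. That palindrome lies 44 to 49 bases after the transcription start and behind an ATG. Whether it is coding sequence was not checked. GCGTG was present in 5 of the 7, those of Cldn1, Cldn3, Cldn7, Ocln and Epcam, and in 29.7% of all promoters. Either core was thus found in 6 of 7 windows, against 41.6% of all, and the window read for Tjp1 held neither. For each gene only the first window listed was read, and any other transcription start was not searched. CAGGTG occurred 5 times in Cldn7, 2 times in Ocln and 1 time each in Cldn3 and Epcam, and in 18.8% of all promoters. The 7 windows ranged from 33.7% to 75.7% in GC content, which moves with the chance of such letters. These matches are a description of the sequence and not binding sites.

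Occludin and ZO-1 were the genes without a called change. Ocln read 10.33, 10.37, 10.44 and 10.38 with AdGFP and 10.37, 10.47, 10.41 and 10.46 with AdHIF1a, with overlapping groups and a higher AdHIF1a well in 3 of 4 rats. The difference was 0.05 ± 0.08 (95% interval -0.13 to 0.23; limma adjusted p = 0.731). Tjp1 read 11.48, 11.66, 11.71 and 11.57 with AdGFP and 11.53, 11.47, 11.84 and 11.46 with AdHIF1a. It was higher in rats 1 and 3 and lower in rats 2 and 4, and the difference was -0.03 ± 0.09 (-0.24 to 0.18; adjusted p = 0.857). These intervals allow a change of up to 1.17-fold for Ocln and 1.18-fold for Tjp1, so changes within them were not excluded with 4 rats. The sign of Ocln turned with median centring, and that of Tjp1 with quantile normalization or without rat 2.

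Cdh1, the gene of E-cadherin, read 12.22, 12.06, 12.14 and 12.15 in the AdGFP wells and 11.58, 11.56, 11.81 and 11.50 in the AdHIF1a wells. The groups were apart by more than their spread (SD 0.066 and 0.14), with rat 3 showing the smallest gap (-0.33) and rat 4 the widest (-0.65). The mean fell by 0.53 ± 0.09, or 1.44-fold (1.25 to 1.67; limma adjusted p = 0.00636), the largest fall of the 9 genes. It was called under all 14 alternatives, with an adjusted p of at most 0.0368. Cdh1 and Cldn3 were also the only 2 of the 9 genes with an adjusted p under 0.01.

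Epcam read 11.76, 11.76, 11.74 and 11.67 with AdGFP and 11.45, 11.25, 11.40 and 11.20 with AdHIF1a. The AdGFP wells were nearly equal (SD 0.043), and all AdHIF1a wells were below them. The mean fell by 0.41 ± 0.08, or 1.33-fold (1.16 to 1.51; limma adjusted p = 0.0123). Its claudin partner Cldn7 rose in the same wells, as given above. Leaving out rat 2 or rat 4 ended the call of Epcam (adjusted p = 0.0721 and 0.0652), in a range over all alternatives of 0.000970 to 0.0721.

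**Figure D2:**
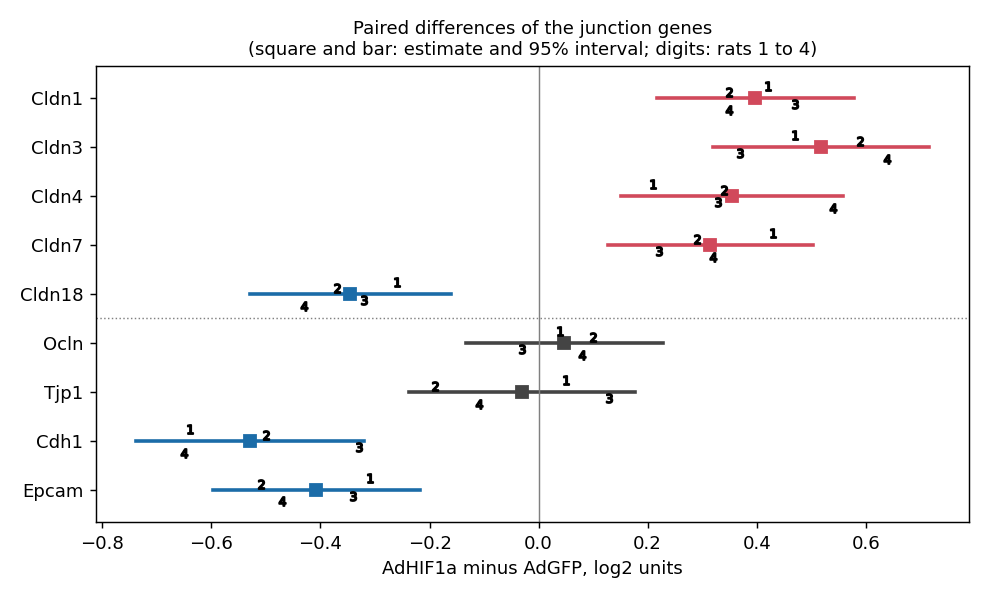
Difference AdHIF1a minus AdGFP in log2 units (horizontal axis) for each junction gene, with the paired estimate (square), its 95% interval (bar) and the 4 rats as digits. Red and blue mark genes called higher and lower and grey those not past the threshold, and the dotted line parts the claudins from the others.

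**Figure D3:**
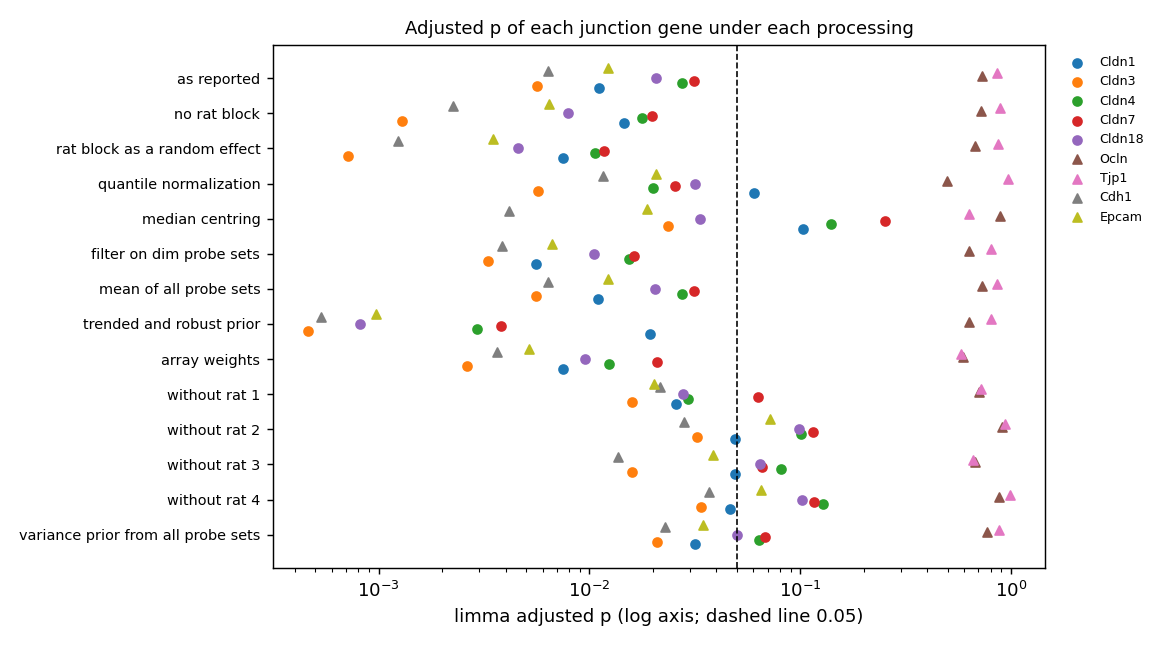
Adjusted p of each junction gene from limma (horizontal log axis) under each way of processing (vertical axis), with circles for claudins, triangles for the other genes and a dashed line at 0.05. Cldn3 and Cdh1 stay left of the line in every row, Ocln and Tjp1 stay right of it, and Cldn4, Cldn7 and Cldn18 cross it in at least 3 of the 4 rows that leave out a rat.

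Beyond the 9 genes, 7 lists of junction-related genes were read from the same fit, with 108 of 121 entries measured. Of these genes, 13 were higher and 30 lower, or 39.8% in all, with a median difference of -0.04. The shares over all genes, against which the count of each list below is to be read, were 8.68% higher, 11.5% lower and 20.2% in all. These shares include dim genes. With genes dimmer than the median probe set left out, 3949 of 11343 genes were called. That share is larger, and the count of each list is to be read against it too. Of the wider lists 87 genes then remained, with 13 higher and 31 lower. With the variance prior from all probe sets, 10 were higher and 21 lower, while 13.4% of all genes were called.

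The other membrane proteins of the tight junction had 0 of 24 measured genes higher and 3 lower (median 0.03). Cldn6, a claudin known from embryonic epithelium, read 10.64, 11.07, 10.67 and 11.28 with AdGFP and 9.84, 10.23, 10.08 and 10.09 with AdHIF1a, without overlap, and fell by 0.85 ± 0.11, or 1.81-fold (limma adjusted p = 0.00219). The junctional adhesion molecule genes Jam3 and F11r fell by 0.79 ± 0.09 and 0.43 ± 0.09 (adjusted p = 0.00132 and 0.0150), and F11r was not called without rat 3 (0.0623). Cldn6 was the only called gene among 15 other claudins, of which 12 had a mean signal under 6. The angulin gene Lsr and the tricellulin gene Marveld2, both of tricellular junctions, differed by 0.01 ± 0.08 and 0.07 ± 0.08, and were picked after their values were seen.

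Scaffold and polarity genes went both ways, with 3 of 23 higher and 6 lower (median 0.03). Tjp3, the gene of the scaffold ZO-3, rose by 0.81 ± 0.15, or 1.75-fold (limma adjusted p = 0.00855), although Tjp1 for ZO-1 was not called. Its rise was 0.35 in rat 3 and 1.15 in rat 4. Pard3, the polarity scaffold PAR3, rose by 0.44 ± 0.08 with a narrow range over rats of 0.41 to 0.46 (adjusted p = 0.00690), a call lost with median centring (0.0644). Crb3, an apical polarity protein, fell by 0.48 ± 0.08, and Prkcz, the atypical protein kinase C zeta of the PAR complex, by 0.69 ± 0.13 (adjusted p = 0.00695 and 0.00884). The other called genes, named after their values were seen, were Ybx3, a factor that binds ZO-1 (0.31 ± 0.08), the cingulin genes Cgn (-0.40 ± 0.09) and Cgnl1 (-0.58 ± 0.15), the polarity gene Llgl2 (-0.42 ± 0.10) and the angiomotin-like gene Amotl2 (-0.36 ± 0.09). None of these 5 was called without rat 2, 3 or 4 or with the prior from all probe sets (adjusted p between 0.0521 and 0.134), nor was Amotl2 without rat 1 (0.0659) or with quantile normalization (0.0541), or Ybx3 with median centring (0.231).

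Of 15 adherens junction partners, 7 were lower and 1 higher (median -0.31). The nectins, which pair across cells beside the cadherins, did not move together. Nectin1 read 8.78, 8.35, 8.18 and 8.17 with AdGFP and 9.72, 9.64, 9.14 and 9.66 with AdHIF1a, without overlap, and rose by 1.17 ± 0.11, or 2.25-fold (limma adjusted p = 0.000745). Nectin3 and Nectin4 fell by 0.94 ± 0.12 and 0.90 ± 0.15 (adjusted p = 0.00236 and 0.00557). Cdh3, the gene of P-cadherin, read 9.82, 9.84, 9.80 and 10.02 with AdGFP and 9.03, 8.80, 8.77 and 8.64 with AdHIF1a. It fell by 1.06 ± 0.11, or 2.08-fold (adjusted p = 0.000883). The other called genes, named after their values were seen, were Ctnna1 for alpha-catenin at -0.44 ± 0.09, Ctnnd1 for p120-catenin at -0.45 ± 0.08, Vcl for vinculin at -0.63 ± 0.11 and Jup for plakoglobin at -0.31 ± 0.08. Among uncalled genes picked in the same way, Ctnnb1 for beta-catenin differed by -0.19 ± 0.08 (adjusted p = 0.148), Nectin2 by -0.10 ± 0.07 (0.395) and the actin-binding partner Afdn by 0.12 ± 0.10 (0.489). The call of Ctnna1 was lost without rat 2 or 4 (0.0767 and 0.0749) and that of Jup when any single rat was left out (0.0696, 0.113, 0.0769 and 0.121 for rats 1 to 4), with the prior from all probe sets (0.0741) and with quantile normalization (0.0614).

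Among 7 measured partners of Epcam and its proteases, 4 were lower and 0 higher (median -0.34). Tspan8 and Cd9, tetraspanins of the membrane complexes that hold Epcam, fell by 1.39 ± 0.16 and 0.87 ± 0.08, or 2.62-fold and 1.83-fold (limma adjusted p = 0.00153 and 0.000615). Prss8, the membrane protease prostasin, fell by 0.51 ± 0.09, and the protease inhibitor gene Spint2 by 0.34 ± 0.08 (adjusted p = 0.00666 and 0.0258). St14, the gene of matriptase, which cleaves Epcam, differed by 0.06 ± 0.08 (0.655) and was picked after its value was seen. Spint2 was not called without rat 2, 3 or 4 (0.135, 0.0595 and 0.107) or with the prior from all probe sets (0.0587).

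Desmosomes, the spot-like adhesions tied to keratin, had 1 of 10 measured genes higher and 3 lower (median -0.20). The plakin genes Ppl and Evpl fell by 0.93 ± 0.09 and 0.73 ± 0.17 (limma adjusted p = 0.000837 and 0.0205), and Perp, a tetraspan desmosomal protein and p53 target, by 0.66 ± 0.12 (0.00934). Pkp1, the gene of plakophilin-1, rose by 0.46 ± 0.08 (0.00699). The desmosomal cadherin genes Dsg2 and Dsc2 differed by -0.20 ± 0.10 and -0.20 ± 0.11, past no threshold, and were picked after their values were seen. Evpl was not called without rat 2 or 4 (0.0545 and 0.0835) or with the prior from all probe sets (0.0579).

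The connexins of gap junctions also split, with 2 of 8 measured genes higher and 1 lower (median -0.14). Gjb2, a connexin gene mutated in human hereditary deafness, read 6.57, 6.89, 6.94 and 7.17 with AdGFP and 7.56, 8.13, 8.82 and 8.85 with AdHIF1a, a rise of 1.45 ± 0.15, or 2.73-fold (limma adjusted p = 0.000939). Gja1, the most widely expressed connexin, fell by 0.55 ± 0.11 from a mean of 12.06 ± 0.12 (SD), or 1.47-fold (0.0108). Gjb5 rose by 0.62 ± 0.13 (0.0145), a call lost without rat 1, 2 or 3 (0.0522, 0.0580 and 0.0511).

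The list of transcription factors known to act on epithelial junction genes, which also holds a few splicing regulators, had 6 of 21 measured members higher and 6 lower (median 0.06). Ovol1, a zinc finger factor of epithelial differentiation, read 6.55, 6.86, 7.24 and 7.03 with AdGFP and 8.94, 8.77, 8.60 and 9.05 with AdHIF1a, and rose by 1.92 ± 0.16, or 3.78-fold (limma adjusted p = 0.000381). Klf4, a factor of epithelial barrier formation in skin, rose by 0.97 ± 0.09 (0.000573). The repressor gene Twist2 rose by 1.19 ± 0.09 and Snai1, a direct repressor of Cdh1, by 0.84 ± 0.09 from a low mean signal of 4.32 (0.000334 and 0.00128). The other called factors were named after their values were seen. Ovol2 fell by 1.0 ± 0.15, the grainyhead genes Grhl1 and Grhl2 by 0.96 ± 0.14 and 0.46 ± 0.11, the ETS factor Ehf by 0.72 ± 0.09, Foxa2 by 0.72 ± 0.09 and Klf5 by 0.31 ± 0.08, while Elf3 was 0.47 ± 0.12 and Zeb2 0.39 ± 0.11 higher. Zeb1, uncalled and picked in the same way, differed by 0.07 ± 0.14. Zeb2 was not called without the rat as a block (adjusted p = 0.341) or with it as a random effect (0.253). Calls were lost for Grhl2 without rat 2 or 4 (0.105 and 0.109), for Elf3 without rat 1, 2 or 4 (0.0942, 0.127 and 0.120), for Klf5 when any single rat was left out (0.0661, 0.132, 0.0637 and 0.125) and for Zeb2 without rat 2, 3 or 4 (0.175, 0.123 and 0.153). The prior from all probe sets ended the calls of Grhl2, Elf3, Klf5 and Zeb2 (0.0690, 0.0773, 0.0709 and 0.0913), median centring those of Elf3 and Zeb2 (0.0872 and 0.0988), and quantile normalization that of Klf5 (0.0631).

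**Figure D4:**
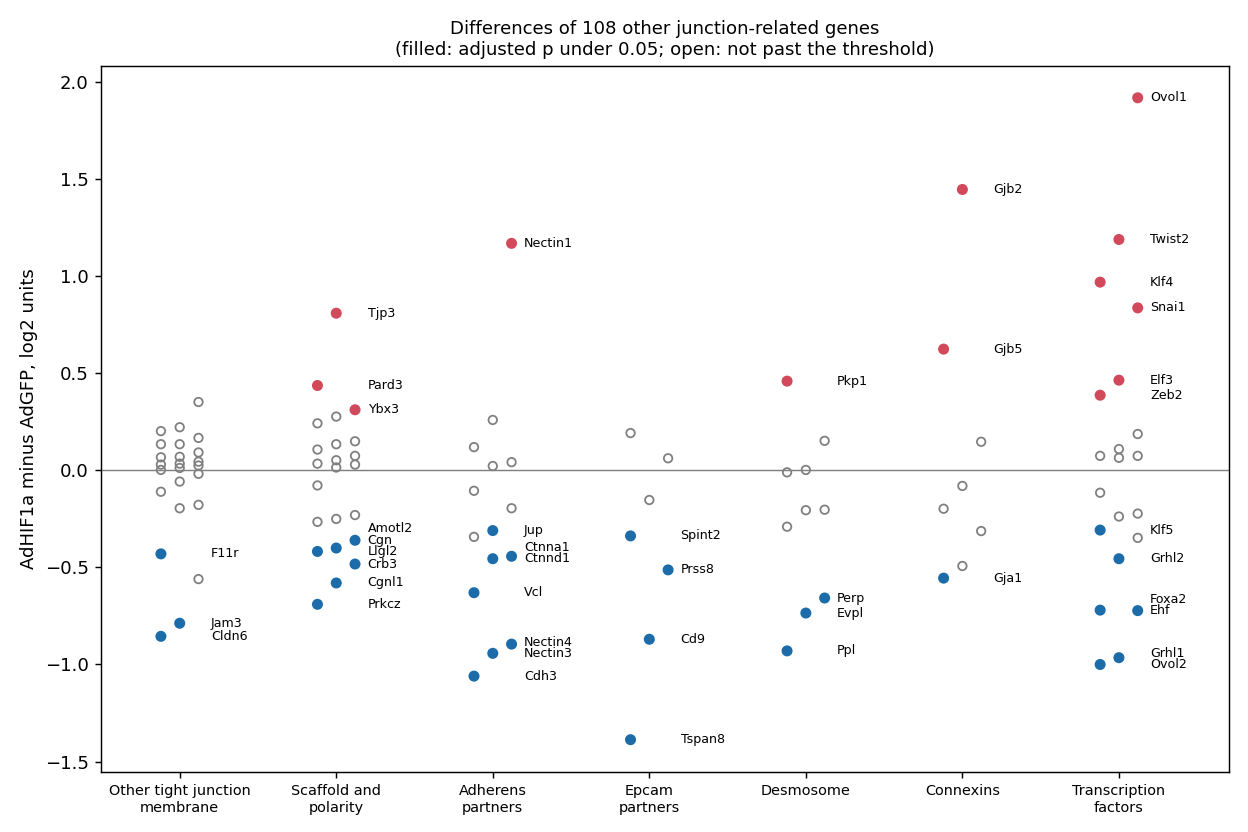
Difference AdHIF1a minus AdGFP in log2 units (vertical axis) of 108 other junction-related genes, by list (horizontal axis), with filled red and blue points for genes called higher and lower and open points for the rest. Adherens and Epcam partners lie mostly below 0, while the transcription factors spread from -1.0 to 1.92.

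Marker genes were read in the same wells. Type II markers had 3 of 10 measured genes higher and 6 lower (median -0.42), and the mean log2 signal of the list was 10.18 to 10.62 with AdGFP and 9.92 to 10.39 with AdHIF1a. Sftpc, the defining surfactant gene and 1 of the 3 higher, read 12.12 to 12.49 with AdGFP and 12.51 to 12.78 with AdHIF1a. Napsa fell most in the list, by 1.52 ± 0.16, from 10.21 to 10.79 with AdGFP to 8.65 to 9.71 with AdHIF1a. It was picked after its value was seen. Type I markers had 8 of 9 genes lower (median -1.08), with list means of 9.33 to 9.97 and 8.13 to 8.77, and Ager read 12.30 to 12.70 and 11.23 to 12.04. The median difference of the type I list was -0.76, -1.26, -0.72 and -1.46 in rats 1 to 4. Its part in the junction results was not tested. Macrophage markers had 2 of 7 genes lower (0 with the prior from all probe sets), with list means of 7.22 to 7.89 with AdGFP and 6.82 to 7.62 with AdHIF1a. No gene was called among 4 endothelial, 6 fibroblast and smooth muscle and 4 airway markers. The endothelial list, with means of 4.41 to 4.69, and the fibroblast list, with 4.76 to 5.07, were at or below the array medians of 5.00 to 5.20. Of the airway markers, the club cell gene Scgb1a1 was bright, at 12.42 to 12.79 over all wells, and differed by 0.04 ± 0.10. It stood apart from its list, whose means were 6.61 to 6.81, and Scgb3a2 of the same list was dim at 3.35 to 4.10.

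**Figure D5:**
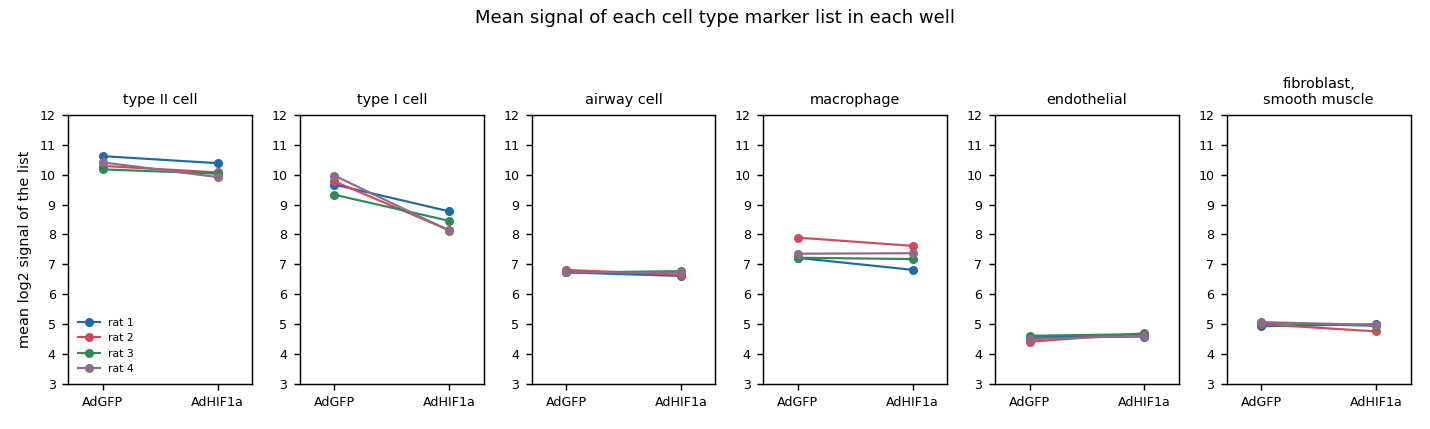
Mean log2 signal (vertical axis) of each list of cell type markers in the AdGFP and AdHIF1a wells, with a line for each rat. The type I list falls in every rat, while the endothelial and fibroblast lists stay near 4.4 to 5.1.

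In the order of genes on the RefSeq assembly GRCr8, Cldn3 and Cldn4 are neighbours and both rose, and Cdh1 lies beside Cdh3 and both fell. Ocln lies beside Marveld2, and neither was called. Calm2 beside Epcam (-0.95 ± 0.12), Dzip1l beside Cldn18 (-0.50 ± 0.10) and Abhd11 beside Cldn3 (0.27 ± 0.08) were called in the direction of the junction gene (limma adjusted p = 0.00224, 0.0134 and 0.0499). P3h2 fell by 1.62 ± 0.23 beside Cldn1, which rose, and Tars3 rose by 0.51 ± 0.12 beside the uncalled Tjp1 (0.00335 and 0.0218). The other measured neighbours were not called. They were Cldn16 beside Cldn1, Elp5 beside Cldn7, Sox14 beside Cldn18, Nsmce3 beside Tjp1 and Tango6 beside Cdh1. Over all genes 20.2% were called, and whether neighbours share a cause was not tested. The genes most like Cldn3 in their 4 within-rat differences were Adad1, Ccdc50 and Atn1, with root mean square gaps of 0.036, 0.043 and 0.049 log2 units. Those most like Cdh1 were Ikzf2, Tmem65 and Daam1, with gaps of 0.031, 0.032 and 0.034. Among the 18166 genes, 60 lay within 0.1 log2 units of Cldn3 and 44 of Cdh1. The gap reflects the size of the differences as well as their pattern over the 4 rats.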

How the data were processed

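Total RNA of 8 wells was measured on Affymetrix arrays. The authors deposited 1 log2 signal for each probe set and array, made with Affymetrix Expression Console, per the submitters' processing notes. The sources used here do not give the summarization, normalization, software version or genome build. That the scale is log2 follows from the range of the values (1.42 to 13.57). A common scale between arrays hides a general rise or fall, and the file holds no detection calls.

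Of the probe sets, 18511 carried 1 symbol, 575 several and 17599 none in the platform annotation. The probe set with the highest mean stood for a gene, which left 18166 genes. Groups and replicate numbers came from the sample titles. Each number shares an extraction date, by which the design pairs the wells of a rat, so the number stands for the rat. The wells of a rat deviated together from their group means (correlations across genes of 0.18 to 0.26, against -0.22 to 0.08 between rats). The comparison used limma 3.58.1 (R 4.3.3), with rats as fixed effects and without a filter. Calls were made at two-sided p-values under 0.05 after Benjamini-Hochberg adjustment across all genes. The script was tested on simulated data. An exact permutation test over 4 pairs cannot go below 0.125 and was not used.

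Alternatives were no block, a random block, quantile normalization, median centring, a filter at the median probe set, the mean of all probe sets, a trended and robust prior, array weights, an adjusted p under 0.01 and the omission of each rat. A variance prior from all probe sets was added after the data were seen. The genes and lists were chosen with earlier results of these data known. By rule the text names the 9 genes, Hif1a, Car12 and Slc2a1, in each wider list up to 4 called genes with the smallest adjusted p and the called gene with the largest difference, up to 2 markers a list, and the 3 genes most like the largest rise and fall. Other genes are marked where they are named. The nearest protein-coding neighbours were added later. Of the 9 genes 7 had a promoter sequence, and list entries that matched no measured gene were not analysed here.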

Additional observations from a re-analysis of the deposited data

Results flagged for a closer look

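Of 104 groups of 4 wells (the 9 junction genes and the 43 called genes of the wider lists, in each virus), 6 held a well whose gap to the nearest other was large against the group's range, and chance alone gives about 1 in 20 such groups. Cldn1 in the AdHIF1a well of rat 3 was high at 5.91, with the other 3 wells at 5.61 to 5.65. Ppl in the AdHIF1a well of rat 3 was high at 8.77 (others 8.44 to 8.46). Nectin1 and Snai1 in the same well were low at 9.14 (others 9.64 to 9.72) and 4.79 (others 5.24 to 5.33). Cd9 was low at 10.04 in the AdGFP well of rat 3 (others 10.44 to 10.49), and Ehf at 9.06 in the AdHIF1a well of rat 4 (others 9.37 to 9.41). Of the 6 values, 5 were of rat 3, and 4 of those were of its AdHIF1a well. Without rat 3, Cldn1 differed by 0.37 (limma adjusted p = 0.0492).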

How the results depend on the processing

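Over 14 alternatives, Cldn3 and Cdh1 kept their calls and their directions, with differences of 0.44 to 0.57 and -0.61 to -0.49. The other called junction genes also kept their direction, and their calls were lost under 3 alternatives for Cldn1, 6 for Cldn4, 7 for Cldn7, 4 for Cldn18 and 3 for Epcam. The uncalled Ocln turned to -0.035 with median centring, and Tjp1 to 0.0072 with quantile normalization. Without a rat Tjp1 ranged from -0.083 (without rat 3) to 0.023 (without rat 2). The number of the 9 genes called was 7, and 3 to 6 without a rat, 4 with median centring and 2 at an adjusted p under 0.01. Of the wider lists 43 genes were called, and 30 to 40 without a rat and 27 at an adjusted p under 0.01. Over all genes 3674 were called, and 2117 to 3803 without a rat, 1878 at an adjusted p under 0.01 and 2443 with the variance prior from all probe sets, which was chosen after seeing the data. Fewer rats and a stricter threshold are part of these settings. Median centring shifts all signals of an array by 1 value, so it lowered the difference of every gene by the same amount. For Cldn4 the difference went from 0.355 to 0.2725 and for Ocln from 0.0475 to -0.035. The cause of the remaining changes was not tested. Without the rat as a block, 3452 genes, 7 of the 9 junction genes and 42 of the wider genes were called, and the block changed no call of the 9. Every gene of the 9 had 1 probe set, so averaging probe sets moved none of their values. The median difference over all genes was -0.005, and -0.09 after median centring.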
